A study of Mus musculus with 11 samples.

Results

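The 38 genes described here are the fibroblast growth factor (FGF) ligands, their receptors and the genes that act as feedback on the receptors' signal or read it out. They were chosen by name, and every row of the deposited tables whose gene name is on the list was taken in all 11 RNA-seq libraries. The mESC table holds 37 of them among 31518 genes and the MEF table holds 36 among 29450 genes. Spry3 was not analysed here, and Fgf4 was analysed in mESCs but not in MEFs. ATXN7L3 is the adaptor of the deubiquitylation module of the SAGA complex, which removes ubiquitin from histone H2B, and the series compares WT and Atxn7l3-/- cells of both types.

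Mouse embryonic stem cells (mESCs) of the 2 WT and 3 Atxn7l3-/- libraries were derived from separate blastocysts and grown without feeder cells after a first period on feeders, in medium with 15% fetal calf serum, LIF, 1 µM PD0325901 and 3 µM CH99021. PD0325901 inhibits MEK, the kinase directly above ERK, and CH99021 inhibits GSK3. WT and Atxn7l3-/- mESCs received both inhibitors, and the activity of MEK and ERK was not analysed here. The 6 MEF libraries, 3 of each genotype, came from fibroblast-like cells grown in 10% serum from E10.5 embryos whose head and gastrointestinal tract had been removed. All cells came from 1 mixed DBA/2 and C57BL/6 background and from matings of carriers of an Atxn7l3 null allele. Each line or culture is 1 embryo. An RNA level in these bulk samples cannot tell fewer cells of a type apart from less RNA per cell.

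FGFs are secreted proteins that bind receptor tyrosine kinases together with heparan sulphate. The activated receptor passes a signal through adaptors to RAS, RAF, MEK and ERK, and ERK switches on ETS transcription factors and a set of inhibitors of the same pathway, so that these inhibitors are commonly read as a record of ERK activity. In mESCs, FGF4 is the known autocrine ligand and drives exit from the naive state, which the MEK inhibitor counters. In the embryo, FGFs made by mesenchyme and epithelium guide the growth of limbs and body wall.

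Levels are given in CPM, counts relative to the library total scaled for composition by TMM over the genes of both tables, and in replicate order within a group. The libraries held 34515342 to 49602605 counts, and 3 counts, taken as the floor, were worth 0.0571 to 0.0936 CPM. Changes are log2 fold changes ± SE from edgeR's quasi-likelihood test, fitted on all genes, and a gene is said to rise, fall or differ at an adjusted p of 0.05 or less. Atxn7l3 itself stood at 196 and 202 CPM in WT mESCs and at 3.33, 1.60 and 0.831 CPM in Atxn7l3-/- mESCs (log2 fold change -6.65 ± 0.53, adjusted p = 0.0211). In MEFs it stood at 86.4, 117 and 104 CPM in WT libraries and at 56.4, 55.3 and 73.2 CPM in the libraries labelled Atxn7l3-/- (-0.74 ± 0.21, adjusted p = 0.0715), so the RNA of the targeted gene did not mark this genotype in MEFs as it did in mESCs. The study itself detected no ATXN7L3 protein in its Atxn7l3-/- MEFs and found H2B ubiquitylation raised in them. Because of the RNA level alone, the MEF group is called by its label throughout.

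Several libraries stood apart from their group. Y-linked Ddx3y was at 2.95 and 0.791 CPM in Atxn7l3-/- mESCs 1 and 2 and between 80.3 and 192 CPM in the other 3 mESC libraries. WT MEF library 3 had 336 CPM of Xist, which coats the inactive X chromosome, against at most 0.742 CPM in the other MEF libraries. The summed level of 8 pluripotency genes was 3237 to 4269 CPM in mESCs, and that of the 6 of them analysed in MEFs was 43.9 to 99.5 CPM there. Of 4 tested in MEFs, Tfcp2l1 rose in the labelled libraries, from 1.24, 1.56 and 1.07 CPM to 75.0, 60.3 and 27.2 CPM. Pou5f1 (804 to 1171 CPM in mESCs) was not analysed in MEFs. The summed level of 12 fibroblast markers was 7938 to 47512 CPM in MEFs against 26.2 to 407 CPM in mESCs. Of 5 mesothelial markers (Wt1, Msln, Upk3b, Upk1b and Lrrn4), all 5 rose in MEFs labelled Atxn7l3-/-, where their sum was 5844 to 8739 CPM against 14.8 to 40.9 CPM in WT MEFs. Of 5 neural crest and Schwann cell markers, 4 fell there (3 with the replicate number as a block), with a sum of 2.72 to 8.58 CPM against 18.6 to 118 CPM, and Foxd3 was at 0 in all 3 of those libraries. In mESCs, the fibroblast marker sum was 26.2 and 101 CPM in WT and 281 to 407 CPM in Atxn7l3-/- libraries, with Col1a1 and Postn rising among 10 tested. The part of these cell mixtures in the FGF results was not tested.

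**Figure D1:**
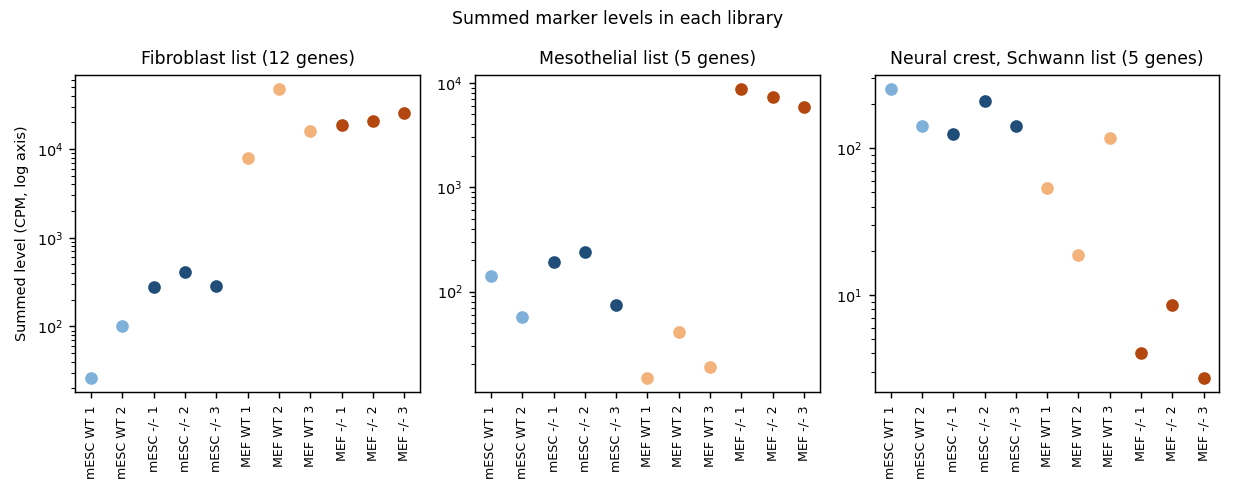
Summed CPM of marker genes on a log axis, 1 point per library, for the fibroblast, mesothelial and neural crest lists in the 5 mESC and 6 MEF libraries. The mesothelial sum lies between 5844 and 8739 CPM in the 3 MEF libraries labelled Atxn7l3-/- and at 40.9 CPM or less in WT MEFs.

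FGF genes differed in level between the 2 cell types. Of the 36 FGF genes of both tables, 34 passed the filter on low counts in the joint fit, and 26 of them differed between WT MEFs and WT mESCs, 21 higher and 5 lower in MEFs. Among all 19326 genes of that fit, 53.9% differed, 26.8% higher and 27.1% lower. With the replicate block 22 FGF genes differed, against 39.4% of all genes. Among the 26, Fgf5, Fgf9, Fgf12, Fgf14 and Fgf16 had at most 9 counts in any mESC library. Fgf3, Fgf8 and Fgf17 had at most 7 counts in any WT MEF library. Fgf15 had 12, 1 and 3 counts in the WT MEF libraries and 0 in each labelled library. These genes passed the filter through the other cell type alone, which fixed their direction, so they are not counted as support. The comparison is between cell types that also differ in medium, and these cannot be told apart.

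**Figure D2:**
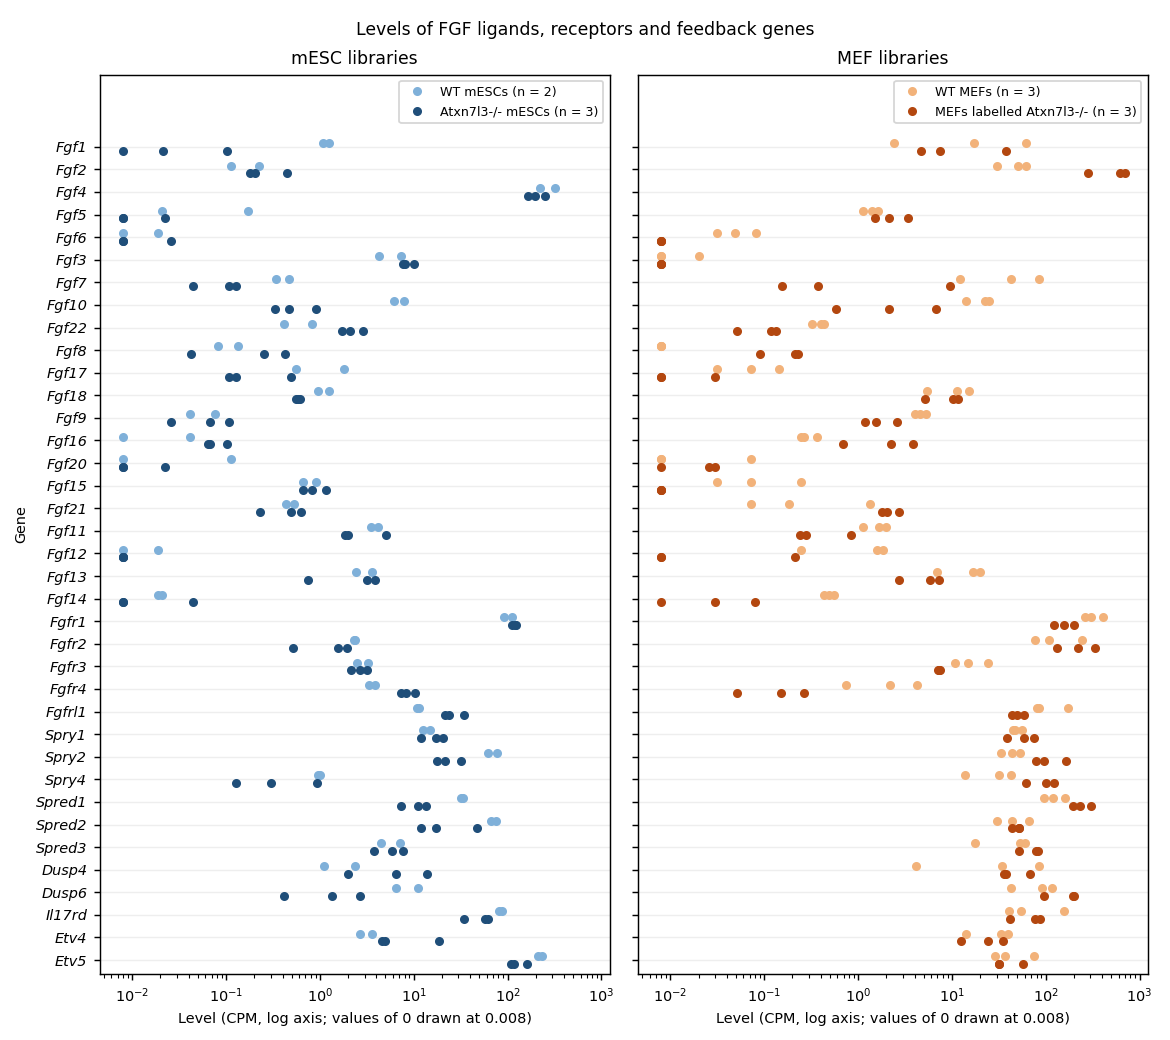
CPM of the FGF genes on a log axis in mESCs (left) and MEFs (right), with 1 point per library and values of 0 drawn at the left edge. Fgf4 is the highest ligand in mESCs at 164 to 321 CPM, and Fgf2 the highest in MEFs labelled Atxn7l3-/- at 285 to 692 CPM.

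Fgf4, the ligand that mESCs make for themselves, was the highest ligand per kb of transcript in WT mESCs. Its levels were 222 and 321 CPM in WT and 164, 248 and 197 CPM in Atxn7l3-/- mESCs. The groups overlapped, and the difference of -0.37 ± 0.24 had a 95% interval from -0.92 to 0.18 (adjusted p = 0.324). Per kb, Fgf4 stood at 158 ± 40.6 CPM (SD, n = 2) in WT mESCs, above Fgf10 at 10.3 ± 1.88 and Fgf3 at 3.996 ± 1.49, and these 3 ranges did not overlap. Fgf3, Fgf4 and Fgf15 are neighbours within 62.9 kb of chromosome 7 in mm10, and no further gene of the annotation lies in that span. Fgf3 was at 4.27 and 7.32 CPM in WT and at 8.08, 7.66 and 10.0 CPM in Atxn7l3-/- mESCs (0.63 ± 0.38, adjusted p = 0.307), and its neighbour Fgf15, which acts as a hormone in bile acid control, was between 0.663 and 1.17 CPM in all mESC libraries. In MEFs, Fgf3 had 1 count in the WT libraries together and none in the others. Fgf15 had 16 counts in the WT MEF libraries together and none in the libraries labelled Atxn7l3-/-.

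Fgf10, a mesenchymal ligand of the epithelial form of FGFR2 and the second ligand of WT mESCs, was lower in Atxn7l3-/- mESCs. It stood at 6.15 and 7.97 CPM in WT and at 0.333, 0.898 and 0.472 CPM in Atxn7l3-/- mESCs, so that both WT libraries lay far above all 3 others. The log2 fold change was -3.59 ± 0.52 (adjusted p = 0.0219). In MEFs the WT levels were 14.0, 22.5 and 25.1 CPM and those of the labelled Atxn7l3-/- libraries 0.583, 2.14 and 6.81 CPM. Here too the groups did not overlap, yet the log2 fold change of -2.68 ± 0.85 passed the test only with the replicate number as a block (adjusted p = 0.0878 without and 0.0353 with it). The difference between the effects in the 2 cell types was 0.93 ± 1.05 (adjusted p = 0.574), with an interval from -1.38 to 3.25.

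Fgf1, the ligand that binds all FGF receptors, was near the floor in Atxn7l3-/- mESCs. Its level was 1.24 and 1.09 CPM in WT mESCs and 0.103, 0.0214 and 0 CPM in Atxn7l3-/- mESCs, which is 118 counts in the 2 WT libraries against 5 in the 3 others. The log2 fold change was -4.75 ± 0.89 (adjusted p = 0.0311), but the gene passed the filter on low counts through its WT libraries alone, which fixed the direction, so it is not counted as support. In MEFs, Fgf1 varied widely within each group, at 62.1, 2.43 and 17.1 CPM in WT and at 37.7, 4.70 and 7.41 CPM in the labelled Atxn7l3-/- libraries (-0.77 ± 1.18, adjusted p = 0.674).

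In all, 12 of 17 secreted ligands were tested in mESCs, and Fgf10 and Fgf1 were called. Across all 37 FGF genes of the mESC table, 30 were tested, of which 1 was called higher and 4 lower, or 3 lower without Fgf1. Among all 17800 genes tested, 3.08% were called higher and 3.88% lower. The median log2 fold change was -0.24 over the 30 and 0.04 over all genes. It is given as a description, since it includes genes whose direction the filter fixed. Fgf1, Fgf7 and Fgf17 passed through the WT libraries alone, and Fgf8 through the Atxn7l3-/- libraries alone. Of the ligands not called, Fgf7 stood at 0.343 and 0.473 CPM in WT against 0.128, 0.107 and 0.0449 CPM, and Fgf17 at 0.552 and 1.79 CPM in WT against 0.128, 0.107 and 0.494 CPM, without passing the test (adjusted p = 0.0800 and 0.127). Both passed the filter through their WT libraries alone, which fixed the direction. Fgf5, a marker of the epiblast after implantation, was at most 0.171 CPM in the mESC libraries. Fgf5, Fgf6, Fgf9, Fgf16 and Fgf20, as well as Fgf12 and Fgf14, were too low to test.

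Without Atxn7l3-/- mESC library 1, or without either WT mESC library, 0 of the tested FGF genes passed the edgeR test, and the genes called among all tested were 3, 0 and 0. The order here is Atxn7l3-/- library 1, then WT libraries 1 and 2. The FGF genes with an unadjusted p under 0.05 numbered 11, 8 and 9 in these fits, against 22.7%, 15.8% and 16% of all genes. Without the pair of libraries with low Y-linked counts, 12 FGF genes were called, while the share of all genes called rose to 20.8%. DESeq2 on all 5 libraries called 11 FGF genes and 17.8% of all genes with an adjusted p. With the replicate block 8 were called, against 8.06% of all genes.

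Fgf2 had the highest mean level per kb among the ligands analysed in WT MEFs. It stood at 94.4 ± 32.1 CPM per kb (SD, n = 3), followed by Fgf1 at 65.1 ± 74.4 and Fgf10 at 30.0 ± 8.48, of which Fgf1 did not differ from its neighbours beyond its spread. The length used per kb is the deposited median over a gene's transcripts, 505 bases for Fgf2 and 418 for Fgf1, so both ranks depend on it. WT MEFs also had more Fgf7 (6.84 ± 1.78), Fgf9 (6.23 ± 0.78) and Fgf18 (3.27 ± 0.58 on the log2 scale) than WT mESCs, with adjusted p = 0.00809, 0.000125 and 0.000981. Fgf7 is made by mesenchyme for epithelial FGFR2, and Fgf9 and Fgf18 act in limb, lung and skeletal growth. Fgf8 and Fgf17, related ligands of the midbrain border and limb, and the hormone Fgf15 were lower in WT MEFs, where Fgf8 had no count in any library. The directions of Fgf8, Fgf9, Fgf15 and Fgf17 were fixed by the filter, as given above. For Fgf15, 24.9% of the exonic bases overlap a gene on the opposite strand. With the replicate block Fgf15 and Fgf17 did not pass (adjusted p = 0.236 and 0.105).

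Fgf2, the basic fibroblast growth factor, which leaves cells without a signal peptide, rose in MEFs labelled Atxn7l3-/-. It stood at 50.6, 30.2 and 62.4 CPM in WT and at 692, 624 and 285 CPM in the libraries labelled Atxn7l3-/-, and the lowest of the second group lay far above the highest of the first. The means were 47.7 ± 16.2 and 534 ± 218 CPM (SD, n = 3 each), and the log2 fold change was 3.46 ± 0.44 (adjusted p = 0.0126, and 0.0221 with the replicate block). Among the 5 FGF genes called in MEFs it was the one called under all of its 15 alternative settings, with adjusted p between 5.19e-11 and 0.0467. In mESCs the gene was near the floor, with 6 and 11 counts in WT and 8, 21 and 8 counts in Atxn7l3-/- libraries, and its log2 fold change was 0.75 ± 0.67 (adjusted p = 0.482). Its exons share 9.44% of their bases with Nudt6 on the opposite strand, and the strand setting of the counting is not given in the sources used here. Nudt6 itself stood at 2.46 to 4.15 CPM in all 6 MEF libraries (0.08 ± 0.39, adjusted p = 0.906).

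Fgf16, a ligand of the FGF9 subfamily, also rose in MEFs labelled Atxn7l3-/-, from a low level. It was at 0.366, 0.249 and 0.268 CPM in WT and at 2.25, 3.88 and 0.687 CPM in the labelled libraries, without overlap (2.90 ± 0.70, adjusted p = 0.0498, and 0.0578 with the replicate block). The call was lost without any of 5 of the 6 libraries in turn (adjusted p between 0.0905 and 0.147). Fgf7 had a large but uneven difference in the other direction, at 12.2, 85.8 and 42.7 CPM in WT and at 0.371, 0.153 and 9.56 CPM in the labelled libraries. The groups were apart, but the test was not passed (-3.78 ± 1.55, adjusted p = 0.148). Without labelled library 3, the difference of Fgf7 was -7.48 and passed (adjusted p = 0.0260). Fgf7 passed the filter on low counts through the WT libraries alone, which fixed its direction, so this pass is not counted as support. Fgf8 had 0 counts in all WT MEF libraries and 8, 9 and 3 counts in the labelled libraries, a level at least 2.33-fold higher than the floor of 3 counts per WT library, and it was too low for the edgeR fit.

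Of the 36 FGF genes of the MEF table, 30 were tested, of which 3 were called higher (Fgf2, Fgf16 and Spry2) and 2 lower (Fgf14 and Fgfr4), against 5.01% higher and 4.39% lower among all 15958 genes tested. Both genes called lower passed the filter through the WT libraries alone, which fixed their direction, so they are given as a description. With the replicate block 2 were called higher and 4 lower, against 14% of all genes, 5.5% higher and 8.49% lower, and the FGF genes called in it were Fgf2, Spred1, Fgf10, Fgf13, Fgf14 and Fgfr4. The median log2 fold change was -0.28 over the 30 and -0.06 over all genes. It is given as a description, since it includes genes whose direction the filter fixed. Fgf7, Fgf11, Fgf12, Fgf14, Fgf22 and Fgfr4 passed through the WT libraries alone, and Fgf21 through the labelled libraries alone. Without WT library 1, WT library 3, labelled library 1 or labelled library 2 in turn, Fgf2 was the 1 FGF gene called, while 1.2% to 2.85% of all genes were. Without WT library 2, 3 FGF genes and 5.23% of all genes were called. DESeq2 called 17 of the FGF genes and 20% of all genes with an adjusted p.

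**Figure D3:**
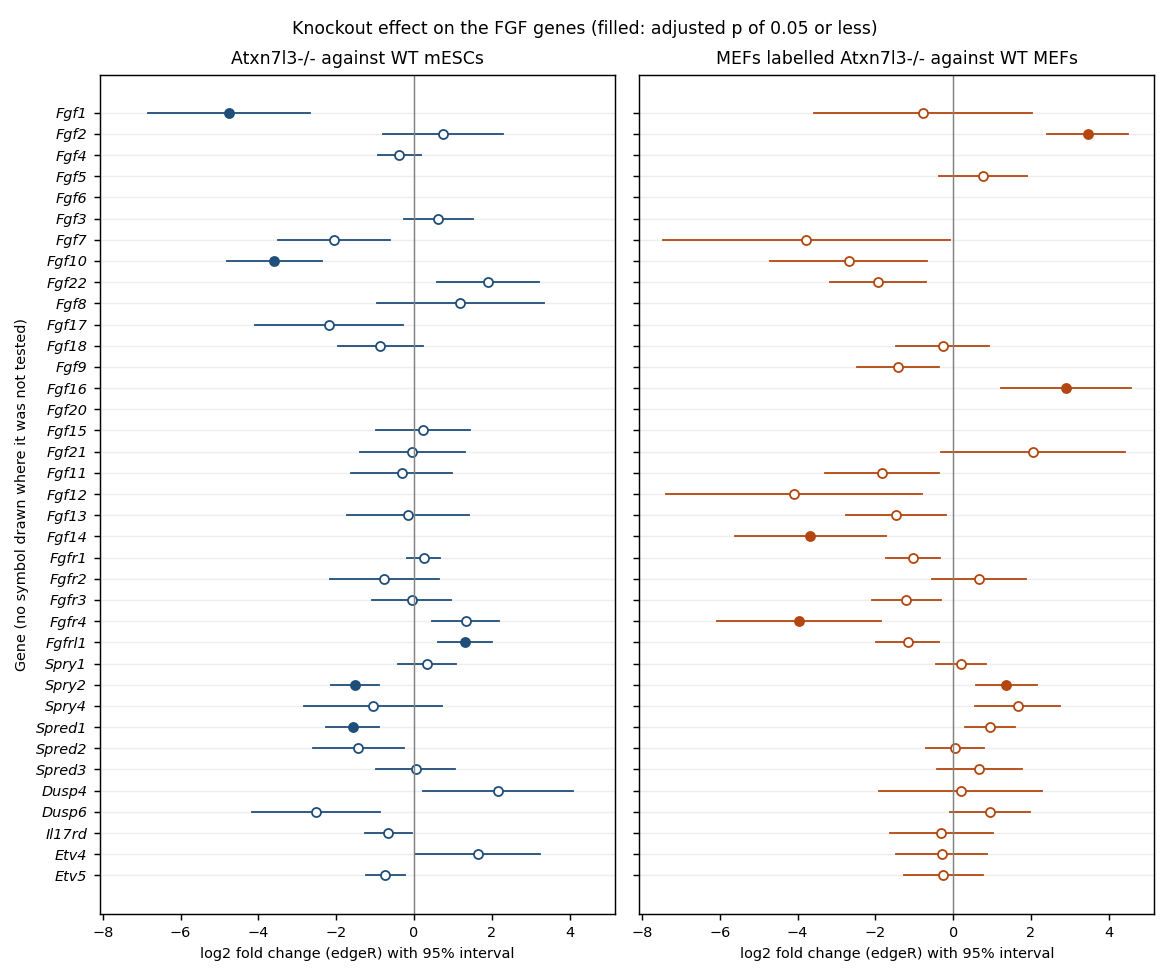
Log2 fold changes of the tested FGF genes with unadjusted 95% intervals, in Atxn7l3-/- against WT mESCs (left) and in MEFs labelled Atxn7l3-/- against WT MEFs (right). Filled points passed an adjusted p of 0.05, 5 in each cell type, of which Spry2 is filled in both, at -1.52 in mESCs and 1.37 in MEFs.

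The intracellular FGF homologous factors Fgf11 to Fgf14 are not secreted and bind voltage-gated sodium channels, mostly in neurons and muscle. Fgf14 was at 0.550, 0.437 and 0.487 CPM in WT and 0.0794, 0 and 0.0299 CPM in the labelled libraries (-3.67 ± 0.82, adjusted p = 0.0425), which is 61 counts against 4. The call was lost without any 1 of the 6 libraries (adjusted p between 0.0697 and 0.110). Fgf12 stood at 1.61, 0.249 and 1.85 CPM in WT and 0.212, 0 and 0 CPM in the labelled libraries (-4.09 ± 1.38, adjusted p = 0.0995). Fgf11 and Fgf13 had log2 fold changes of -1.83 ± 0.62 and -1.48 ± 0.54 (adjusted p = 0.0979 and 0.118), and Fgf13 fell with the replicate block (adjusted p = 0.0382). Fgf11, Fgf12 and Fgf14 passed the filter on low counts through the WT libraries alone, which fixed their direction. The summed level of 5 neuronal markers was 55.3 to 198 CPM in WT and 0.868 to 33.4 CPM in the labelled libraries, and Dcx and Stmn2 fell among 4 tested, and their part in the result was not tested. In mESCs, Fgf11 and Fgf13 stood between 0.742 and 5.03 CPM, with overlapping groups.

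Of the 5 FGF receptors, 4 had a higher level in WT MEFs than in WT mESCs, against 26.8% of all genes. In WT mESCs the order per kb was Fgfr1 (53.7 ± 7.90 CPM), Fgfrl1 (20.2 ± 0.785), Fgfr4 (6.10 ± 0.589), Fgfr3 (2.99 ± 0.580) and Fgfr2 (1.06 ± 0.0252; SD, n = 2 each). Neighbours in that order were further apart than their SDs. In WT MEFs, Fgfrl1 (203 ± 93.7) and Fgfr1 (170 ± 39.1) led without differing beyond their spread, followed by Fgfr2 (65.0 ± 40.8), Fgfr3 (17.1 ± 6.95) and Fgfr4 (4.04 ± 2.95; SD, n = 3 each). The order in WT MEFs depends on the deposited median lengths, 556 bases for Fgfrl1 and 1903 for Fgfr1. Before division by length, Fgfr1 had the highest mean there at 324 ± 74.4 CPM, above Fgfr2 (144 ± 90.2) and Fgfrl1 (113 ± 52.1). FGFR1 to FGFR4 are the signalling tyrosine kinases, and FGFRL1 binds FGFs but has no kinase domain. Against WT mESCs, WT MEFs had more Fgfr2 (5.94 ± 0.76 on the log2 scale), Fgfrl1 (3.33 ± 0.40), Fgfr3 (2.52 ± 0.45) and Fgfr1 (1.66 ± 0.27), with adjusted p between 9.28e-05 and 0.000983. Fgfr4 differed by -0.59 ± 0.69 (adjusted p = 0.490).

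Fgfrl1 rose in Atxn7l3-/- mESCs, from 10.9 and 11.5 CPM to 34.5, 23.8 and 21.8 CPM, without overlap (1.30 ± 0.30, adjusted p = 0.0440). In MEFs it stood at 80.9, 173 and 84.6 CPM in WT and at 49.0, 43.2 and 59.3 CPM in the labelled libraries (-1.17 ± 0.34, adjusted p = 0.0730). The effect differed between the cell types by -2.41 ± 0.48 (adjusted p = 0.0149). After each library's trend over GC content was taken out, this difference was -0.69 (adjusted p = 0.387) and the mESC change 1.08 (adjusted p = 0.0898).

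Fgfr4 had the largest difference between the 2 effects among the FGF genes called in that test. Its level was 3.35 and 3.84 CPM in WT and 7.41, 8.32 and 10.4 CPM in Atxn7l3-/- mESCs (1.33 ± 0.37, adjusted p = 0.0676). In MEFs it was 4.21, 0.748 and 2.19 CPM in WT and 0.265, 0.0511 and 0.149 CPM in the labelled libraries, or 321 against 17 counts in all (-3.95 ± 0.89, adjusted p = 0.0429). As the gene passed the filter in MEFs through its WT libraries alone, this direction was fixed. All libraries of a group lay on the same side in each cell type, in opposite directions. The effects differed by -5.20 ± 1.05 (adjusted p = 0.0160), a call that was lost without either WT mESC library (adjusted p = 0.0948 and 0.0872) and without the pair with low Y-linked counts (0.0542).

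Fgfr1, the kinase receptor with the highest mean per kb in both WT cell types, was at 91.6 and 113 CPM in WT and at 110, 123 and 121 CPM in Atxn7l3-/- mESCs, with overlapping groups (0.26 ± 0.18, adjusted p = 0.378). In MEFs it was at 406, 305 and 261 CPM in WT and at 156, 122 and 202 CPM in the labelled libraries (-1.03 ± 0.29, adjusted p = 0.0674). The difference of the effects, -1.23 ± 0.35, passed narrowly (adjusted p = 0.0473) and did not pass with the replicate block (adjusted p = 0.101) or after the GC correction (-0.54, adjusted p = 0.276). Fgfr2 stood at 107, 246 and 77.4 CPM in WT MEFs and at 224, 339 and 132 CPM in the labelled libraries, with overlapping groups, and became the highest receptor per kb there at 105 ± 46.9 CPM, within its SD of Fgfrl1 and Fgfr1. Fgfr3 stood at 24.0, 14.9 and 10.9 CPM in WT and at 7.26, 7.20 and 7.47 CPM in the labelled libraries (-1.20 ± 0.37, adjusted p = 0.0833), and 13.9% of its exonic bases overlap a gene of the opposite strand.

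Among the inhibitors of the pathway that ERK itself induces, Spry2 and Spred1 fell in Atxn7l3-/- mESCs, while in MEFs all libraries labelled Atxn7l3-/- lay above all WT libraries for both. Sprouty proteins block the path from receptor to RAS and RAF, Spred proteins bring neurofibromin to RAS, and DUSP6 removes the activating phosphates from ERK in the cytoplasm. Spry2, Spred1 and Dusp6 are shown with the 250 bases before their RefSeq starts in GRCm38.p6, since these are the 3 feedback genes whose knockout effect differed between the cell types. Capitals mark GGAA or its reverse complement TTCC, the core of the sites that ETS factors bind.
Spry2, chr14:105896820-105897069, minus strand: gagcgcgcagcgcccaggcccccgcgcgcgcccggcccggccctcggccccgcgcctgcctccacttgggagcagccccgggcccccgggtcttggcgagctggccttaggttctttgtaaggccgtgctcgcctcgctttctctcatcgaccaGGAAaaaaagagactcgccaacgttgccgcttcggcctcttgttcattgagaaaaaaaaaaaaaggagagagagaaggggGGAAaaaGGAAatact
Spred1, chr2:117120821-117121070, plus strand: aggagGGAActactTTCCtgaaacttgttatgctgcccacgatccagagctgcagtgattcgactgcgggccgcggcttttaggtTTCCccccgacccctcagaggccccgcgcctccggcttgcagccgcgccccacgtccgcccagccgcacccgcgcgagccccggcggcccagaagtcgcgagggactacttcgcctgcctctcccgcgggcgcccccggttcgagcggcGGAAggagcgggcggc
Dusp6, chr10:99262981-99263230, plus strand: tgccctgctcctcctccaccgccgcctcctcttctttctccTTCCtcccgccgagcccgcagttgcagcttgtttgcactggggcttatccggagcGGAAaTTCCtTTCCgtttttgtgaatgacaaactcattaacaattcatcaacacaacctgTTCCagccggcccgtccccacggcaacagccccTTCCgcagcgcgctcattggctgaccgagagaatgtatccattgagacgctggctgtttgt
The core occurs 3, 4 and 6 times on either strand in these windows. It is in 93.5% of all 32851 promoters of that length and in 94.3% of the 35 promoters found for 27 FGF genes, so its presence sets no gene apart. The longer CCGGAA, which contains the core, is in 12.03% of all promoters and in none of these 3 windows. TGANTCA, the AP-1 motif, is in 6.75% and also in none of the 3.

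Spry2 was called in both cell types. In mESCs it was at 77.1 and 62.2 CPM in WT and at 17.8, 31.6 and 21.7 CPM in Atxn7l3-/- libraries, without overlap (-1.52 ± 0.27, adjusted p = 0.0285). In MEFs it was at 43.2, 33.6 and 53.0 CPM in WT and at 95.5, 164 and 79.5 CPM in the labelled libraries, again without overlap but in the opposite direction (1.37 ± 0.33, adjusted p = 0.0488). With the replicate block the MEF call was lost (adjusted p = 0.0726), and it was lost without any of 5 of the 6 MEF libraries in turn (adjusted p between 0.0893 and 0.123). The difference between the effects was 2.94 ± 0.47 (adjusted p = 0.00657) and passed under all 20 alternatives, with adjusted p between 2.26e-06 and 0.0435. WT MEFs and WT mESCs did not differ in Spry2 at this threshold (-0.69 ± 0.34, adjusted p = 0.113).

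Spred1 stood at 33.2 and 32.1 CPM in WT and at 7.36, 13.5 and 10.99 CPM in Atxn7l3-/- mESCs (-1.58 ± 0.29, adjusted p = 0.0308). In MEFs it was at 159, 96.1 and 120 CPM in WT and at 306, 234 and 197 CPM in the labelled libraries, without overlap, and the rise passed only with the replicate block (0.95 ± 0.27, adjusted p = 0.0697 without and 0.0470 with it). The difference between the effects was 2.59 ± 0.40 (adjusted p = 0.00608) and passed under all 20 alternatives. The mESC calls of Fgf1, Fgf10, Fgfrl1, Spry2 and Spred1 were each lost without Atxn7l3-/- library 1 and without either WT library, with adjusted p between 0.0815 and 0.250.

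Dusp6 was at 11.1 and 6.49 CPM in WT and at 0.410, 1.35 and 2.67 CPM in Atxn7l3-/- mESCs. The groups did not overlap, but the test was missed by a small margin (-2.52 ± 0.71, adjusted p = 0.0705). In MEFs it was at 115, 42.5 and 92.3 CPM in WT and 202, 194 and 96.9 CPM in the labelled libraries, with overlapping groups (0.95 ± 0.44, adjusted p = 0.181). The effects differed by 3.54 ± 0.84 (adjusted p = 0.0270), which was lost without either WT mESC library, without the pair with low Y-linked counts and without labelled MEF library 1 or 2 (adjusted p between 0.0531 and 0.118).

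**Figure D4:**
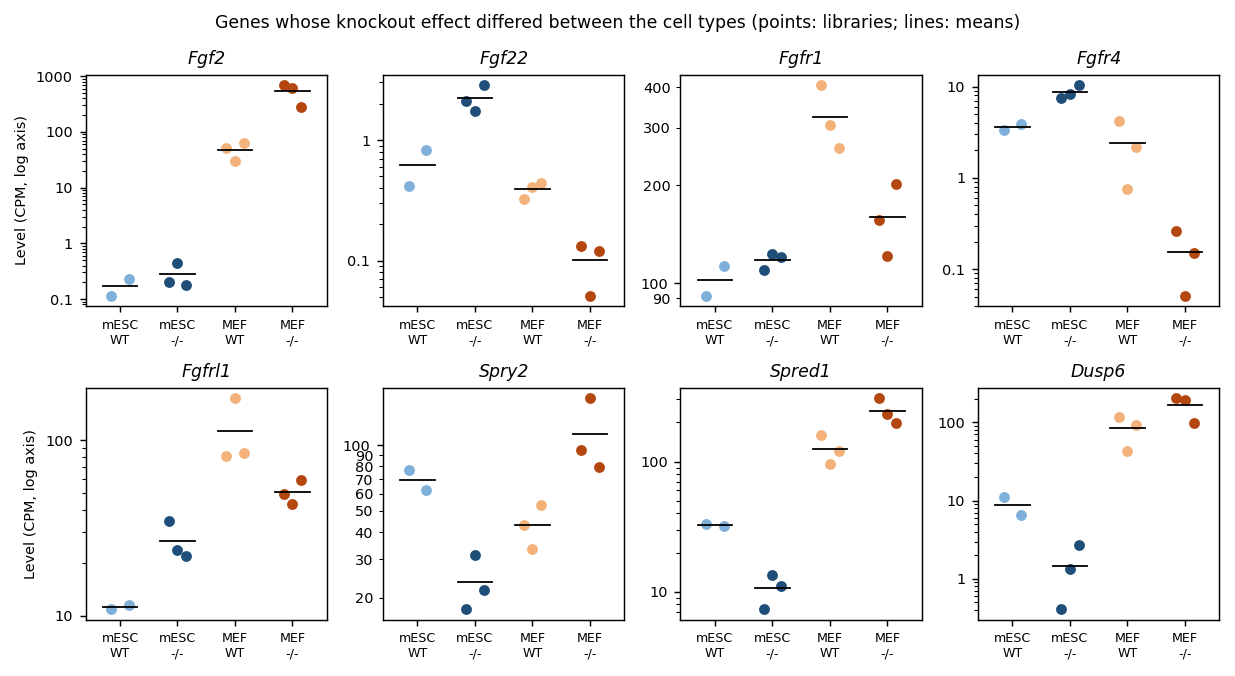
CPM on a log axis of the 8 FGF genes whose knockout effect differed between MEFs and mESCs, with 1 point per library and a line at the group mean. Spry2, Spred1 and Dusp6 are lower in all 3 Atxn7l3-/- mESC libraries than in WT, while Fgfr4 and Fgfrl1 are higher there and lower in MEFs labelled Atxn7l3-/-.

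Of the 34 FGF genes tested for a difference of the effect, 8 passed, 4 with the higher effect in MEFs (Fgf2, Spry2, Spred1 and Dusp6) and 4 with the lower (Fgf22, Fgfr1, Fgfr4 and Fgfrl1). Among all 19326 genes 11.4% passed, 6.14% higher and 5.27% lower. Fgf22, a ligand known from synapse formation, was at 0.419 and 0.822 CPM in WT and at 2.10, 1.73 and 2.85 CPM in Atxn7l3-/- mESCs (1.90 ± 0.56, adjusted p = 0.0767). In MEFs it was at 0.326, 0.405 and 0.438 CPM in WT and at 0.132, 0.0511 and 0.120 CPM in the labelled libraries, which is near the floor (-1.93 ± 0.52, adjusted p = 0.0624). As Fgf22 passed the filter in MEFs through its WT libraries alone, this direction was fixed. The effects differed by -3.76 ± 0.80 (adjusted p = 0.0189). With the replicate block the differences of Fgf2 (adjusted p = 0.0970), Fgf22 (0.0576) and Fgfr1 did not pass, while those of Fgf1 (adjusted p = 0.0479) and Spry4 (0.0242) did, which left 7 against 7.15% of all genes. Without the pair of mESC libraries with low Y-linked counts, 3 FGF genes passed, and without either WT mESC library 2.

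The other feedback genes did not pass in either cell type without the replicate block. With the block, 4 of the 11 feedback and target genes were called in mESCs, all lower, against 8.06% of all genes in either direction. Spry4 was at 1.01 and 0.945 CPM in WT and 0.128, 0.299 and 0.921 CPM in Atxn7l3-/- mESCs, and at 43.1, 13.7 and 31.7 CPM in WT and 123, 101 and 61.3 CPM in labelled Atxn7l3-/- MEFs (1.66 ± 0.46, adjusted p = 0.0662). Its groups were apart in each cell type, in opposite directions. Spred2 stood at 66.5 and 74.9 CPM in WT against 17.2, 47.7 and 11.8 CPM in Atxn7l3-/- mESCs (-1.44 ± 0.50, adjusted p = 0.111) and differed by 0.04 ± 0.31 in MEFs. Il17rd, whose product SEF holds back the signal at the receptor and below, was at 87.2 and 80.4 CPM in WT and 34.8, 57.8 and 61.6 CPM in Atxn7l3-/- mESCs (-0.66 ± 0.26, adjusted p = 0.144). Dusp4, a nuclear phosphatase of ERK, went the other way in mESCs, at 2.34 and 1.11 CPM in WT and 6.51, 2.01 and 13.8 CPM in Atxn7l3-/- libraries, with overlapping groups (2.169 ± 0.83, adjusted p = 0.132). Spry1 was between 12.02 and 20.7 CPM in mESCs and between 38.9 and 76.0 CPM in MEFs, with overlapping groups in both, and 24.4% of its exonic bases overlap a gene on the opposite strand. Spred3 differed by 0.04 ± 0.44 in mESCs and 0.68 ± 0.46 in MEFs.

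Etv4 and Etv5 encode ETS factors that serve as transcriptional targets of FGF signalling. Etv5 was at 235 and 209 CPM in WT and at 109, 163 and 118 CPM in Atxn7l3-/- mESCs, with all 3 below both WT libraries (-0.73 ± 0.21, adjusted p = 0.0743). Etv4 was at 2.70 and 3.55 CPM in WT and at 4.90, 4.60 and 18.5 CPM in Atxn7l3-/- mESCs, with all 3 above both WT libraries (1.64 ± 0.69, adjusted p = 0.162). In MEFs the groups of both genes overlapped, with differences of -0.29 ± 0.49 for Etv4 and -0.26 ± 0.43 for Etv5 (adjusted p = 0.704 and 0.701). WT MEFs had more Etv4 than WT mESCs (3.21 ± 0.76, adjusted p = 0.00502) and less Etv5 (-2.24 ± 0.40, adjusted p = 0.00101). Over the 11 feedback and target genes tested, 2 fell and 0 rose in mESCs, against 3.88% lower and 3.08% higher among all genes, and the median log2 fold change was -0.73. At an unadjusted p under 0.05 there were 8, against 29.8% of all genes, and these include Dusp4 and Etv4, which were higher in Atxn7l3-/- mESCs. In MEFs 1 rose, against 5.01% of all genes, 3 had an unadjusted p under 0.05, against 32.4% of all genes, and the median was 0.20. Against the WT level in mESCs, the feedback genes were higher in WT MEFs for 6 of 9 without the ETS factors: Spry1, Spry4, Spred1, Spred3, Dusp4 and Dusp6. The share of all genes higher in WT MEFs was 26.8%.

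**Figure D5:**
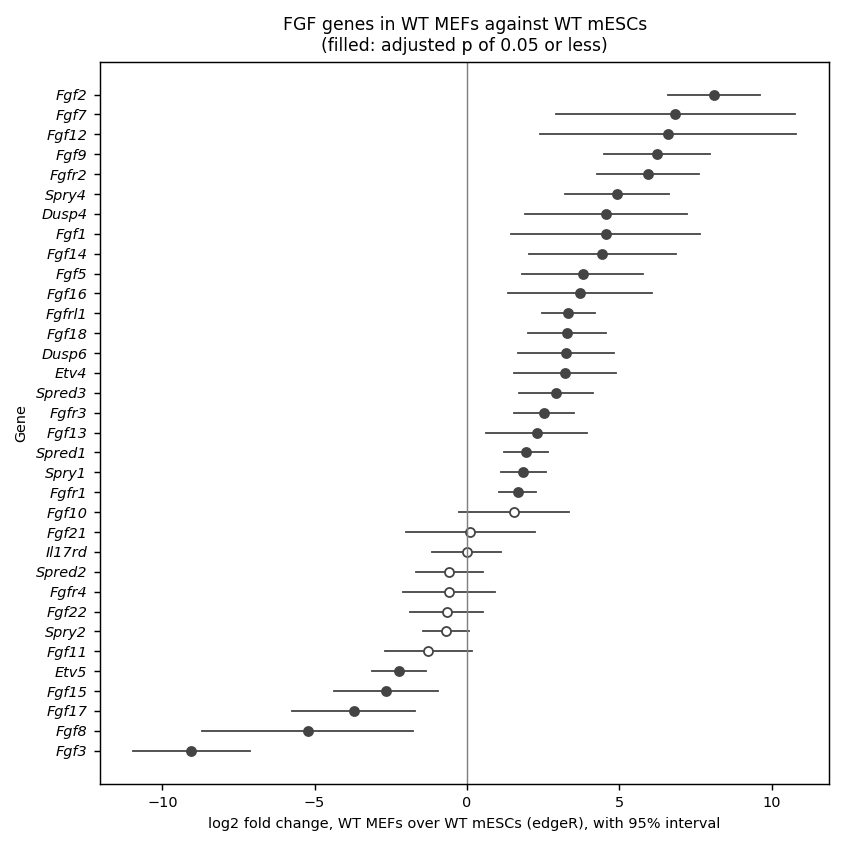
Log2 fold changes of 34 FGF genes in WT MEFs over WT mESCs with unadjusted 95% intervals, ordered by size, and filled where the adjusted p was 0.05 or less. Fgf2 is at the top with 8.12, and 21 filled points lie above 0 and 5 below.

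Other genes of the pathway were taken from a list of 57 co-receptors, adaptors, kinases and ERK-responsive genes. In mESCs 56 were tested, of which 4 were called higher and 5 lower, against the 6.96% of all genes called in either direction, and the 8 with the largest changes are given here. Among the genes called lower were 4 of 13 ERK-responsive genes, against 3.88% of all genes called lower. Of these, Myc passed the filter through its WT libraries alone, which fixed its direction, so it is not counted as support. Of the 13, 0 were called higher, and 4 had a positive log2 fold change. Egr1, an immediate-early transcription factor, was at 13.5 and 21.5 CPM in WT and 0.821, 1.80 and 0.225 CPM in Atxn7l3-/- mESCs (-4.17 ± 0.72, adjusted p = 0.0279). Myc stood at 7.67 and 7.40 CPM in WT and 0.154, 0.556 and 0.180 CPM in Atxn7l3-/- mESCs (-4.61 ± 0.62, adjusted p = 0.0211). Ier2 fell by 1.64 and the cyclin gene Ccnd1 by 1.39 on the log2 scale (adjusted p = 0.0211 and 0.0317). These 4 genes answer to many signals besides ERK.

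Co-receptors moved both ways in mESCs. Flrt3, a membrane protein that binds FGF receptors, fell from 4.55 and 4.60 CPM to 0.282, 0.556 and 0.831 CPM (-2.98 ± 0.55, adjusted p = 0.0301). The heparan sulphate carrier Sdc4 rose from 225 and 182 CPM to 790, 395 and 628 CPM (1.62 ± 0.33, adjusted p = 0.0353), and Sdc1 and the FGF-binding protein gene Fgfbp3 rose by 1.159 ± 0.23 and 2.39 ± 0.45. In the self-test on simulated counts, 45 of 100 genes with a 4-fold change were recovered in the mESC comparison and 17 of 100 in the MEF comparison. Far fewer genes were changed there than were called in the data, which makes the adjusted p stricter. These shares therefore do not tell how many changes the real fits would miss. For the difference of effects 0 of 100 were recovered, and for the cell type comparison 21 of 100.

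In MEFs 55 of the 57 were tested, of which 3 rose and 0 fell, against 9.41% of all genes called in either direction. At an unadjusted p under 0.05 there were 17 of the 55, against 32.4% of all genes. DESeq2 called 12, against 20% of all genes, and with the replicate block 3 were higher and 5 lower, against 5.5% and 8.49% of all genes. Sdc4 rose here as in mESCs, from 296, 273 and 161 CPM to 1827, 1502 and 1296 CPM (2.64 ± 0.33, adjusted p = 0.0119). Flrt3 rose, in contrast to its fall in mESCs, from 20.5, 19.3 and 14.6 CPM to 43.0, 64.6 and 33.2 CPM (1.35 ± 0.30, adjusted p = 0.0434), and its effects differed between the cell types by 4.40 (adjusted p = 0.00358). Nras, a RAS gene, rose from 167, 111 and 169 CPM to 311, 319.5 and 269 CPM (0.99 ± 0.23, adjusted p = 0.0475, and 0.0582 with the replicate block).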

How the data were processed

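RNA-seq was analysed in 11 libraries, 5 of mESCs and 6 of MEFs, from poly(A) RNA in a strand-marking kit. Per the labels, the authors used bcl2fastq 2.17.1.14, cutadapt 1.10, STAR 2.5.3a, HTSeq 0.6.1p1 and DESeq2 1.16.1 on mm10, while the annotation and strand setting are not given in the sources used here. The deposited tables, 1 per cell type, hold raw counts per gene, a normalized signal (counts divided by a size factor set within each cell type), the same per kb of median transcript length, and those lengths. The MEF table also has 1 unnamed value column, not used. A further WT mESC dataset that the study set aside is not analysed here.

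The raw counts were tested with edgeR 4.0.16 (TMM, filterByExpr, quasi-likelihood, Benjamini-Hochberg over all genes tested) in R 4.3.3, within each cell type for the knockout, and on all 11 libraries over the 26398 genes of both tables for the difference of effects and for WT MEFs against WT mESCs. CPM and the median lengths gave levels per kb. Alternatives were DESeq2 1.42.0, other scalings and filters, GC offsets, the replicate block and leaving out libraries. Scripts were tested on simulated data. Each sample is 1 embryo's line or culture, so p-values measure the spread between these. Deviations of same-numbered MEF samples correlated at 0.473, 0.161 and 0.240 in the data, although the animals differ, so block values are given where they change a MEF call.

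The members and lists were chosen with earlier results of these data known. Per-library values are given for FGF genes called in a knockout comparison or in the difference of effects, for the 3 largest changes per comparison and for the leading ligands and receptors, and other FGF genes are described beside them. Of the other pathway genes, up to 8 called per comparison are named by size.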

Additional observations from a re-analysis of the deposited data

Results flagged for a closer look

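For 8 FGF genes the knockout effect differed between MEFs and mESCs by a test of the difference itself, the interaction term of edgeR's fit on all 11 libraries. The effect was higher in MEFs, on the log2 scale, by 2.76 for Fgf2, 2.94 for Spry2, 2.59 for Spred1 and 3.54 for Dusp6. It was lower in MEFs for Fgf22 (-3.76), Fgfr1 (-1.23), Fgfr4 (-5.20) and Fgfrl1 (-2.41). The differences of Spry2 and Spred1 passed under all 20 alternatives, while that of Fgfr1 was lost under 14 of 20 and that of Fgf2 under 13 of 19. The others were lost under 6 of 19 (Fgf22), 5 of 20 (Fgfrl1), 5 of 20 (Dusp6) and 3 of 19 (Fgfr4). In simulated counts this test recovered 0 of 100 genes with a 4-fold difference, but far fewer genes were changed there than were called in the data. Medium, derivation and the cell mixtures differ between the cell types and cannot be told apart from cell type.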

How the results depend on the processing

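None of the named genes whose single values were recomputed changed sign, and for the other genes only counts were recomputed. The 5 FGF genes called in mESCs became 3 in 1 fit of all 11 libraries, 11 by DESeq2, 9 with the GC correction and the replicate block, 3 (of 23 tested) with at least 10 counts in every library, 11 with no filter, 8 with the replicate block and 12 without the pair with low Y-linked counts, a setting chosen after seeing the data. Leaving out 1 Atxn7l3-/- library gave 0 to 8, against 0.0171% to 12.8% of all genes. The share of all genes was 17.8% by DESeq2 and 8.06% with the replicate block. The 5 called in MEFs became 13 in 1 fit of all libraries, 17 by DESeq2, 3 with the GC correction, 1 (of 22 tested) with at least 10 counts and 3 with upper-quartile scaling, and 1 to 5 without 1 library. Among all genes, 20% were called by DESeq2 and 1.2% to 12.2% without 1 library. The 8 differences of effect became 5 with the GC correction, 5 (of 17 tested) with at least 10 counts and 3 without the low Y-linked pair, and 2 to 10 without 1 library. The 26 cell type differences of 34 tested became 13 of 17 tested with at least 10 counts, and 17 to 27 without 1 library. Of the other pathway genes, the 9 called in mESCs became 4 in 1 fit, 19 by DESeq2, 14 with GC and block, 15 with no filter and 24 without the low Y-linked pair, and 0 to 17 without 1 library. The 3 in MEFs became 11 in 1 fit, 12 by DESeq2, 7 with GC and block, 1 with at least 10 counts, 6 with no filter and 8 with the block, and 1 to 7 without 1 library. The filter on 10 counts leaves fewer genes to test, and the cause of the other shifts was not tested. Where no share of all genes called is given, a shift in these counts is not read as a result about the listed genes.

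The replicate block gave 6 FGF genes in MEFs, 7 differences of effect and 22 cell type differences. In mESCs same-numbered samples correlated at 0.00777 and -0.172. With 2 WT libraries their deviations from the mean mirror each other, so these values cannot tell whether the samples are paired. The block called 8 FGF genes in mESCs. Genes near the floor of 3 counts, such as Fgf2 in mESCs and Fgf8 in MEFs, are limited by depth, and with 2 WT mESC libraries each mESC call rests on both.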
